A study of Mus musculus with 2 samples.

Results

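The genes described here encode endocytic receptors and the machinery that carries them: 42 genes, chosen by name, of 26061 gene symbols in the expression table. All 42 were found there, each on a row of its own. They comprise 11 receptor genes (a receptor chaperone included), 29 genes of the clathrin coat, its adaptors, early endosomes and recycling, and 2 caveolin genes. Levels are RPKM as the authors deposited them, that is, reads divided by gene length in kilobases and by library size in units of 1000000 reads.

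The RNA came from PS10, a female extraembryonic endoderm stem (XEN) cell line of ICR strain. XEN cells are derived from the primitive endoderm of the blastocyst, the source of yolk sac endoderm. Cells were transfected with an oligonucleotide of locked nucleic acid (LNA) that targets Gata6-AS, the noncoding RNA transcribed antisense beside the endoderm regulator Gata6, or with a control LNA. Both groups were of the same line and received the same lipid transfection reagent; the titles call the oligonucleotides siRNA. Each group had 1 library, so no test between the groups was possible, and every difference below compares these libraries and has no replicate check.

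Yolk sac endoderm feeds the early embryo by taking up maternal proteins and lipoproteins. Receptors at the cell surface bind cargo, cytosolic adaptors gather them under a clathrin lattice, dynamin pinches the vesicle off, and early endosomes send the cargo to lysosomes and the receptors back to the surface. In this epithelium megalin, cubilin and their adaptor Dab2 are the best known of these proteins.

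The spacing of the RPKM values of short genes corresponds to 1.23e+08 reads in the Gata6-AS LNA library and 1.04e+08 reads in the control LNA library. Gata6-AS, listed under its older symbol 1010001N08Rik, stood at 5.83 RPKM in the Gata6-AS LNA library and 10.1 RPKM in the control LNA library. This was 57.8% of control (exact 95% counting interval 50.5% to 66.1%). Without a known strand setting, its reads cannot be parted from those of Gata6 where the genes overlap. All 7 XEN markers, of which Dab2 is also one of the 42 genes, were expressed, and they summed to 549 RPKM in the Gata6-AS LNA library and 793 RPKM in the control LNA library. Most were lower, but they did not all go one way. Gata4 was at 68.8%, Gata6 at 68.0%, Sox7 at 40.9%, Sox17 at 74.3% and Pdgfra at 77.2% of control. Foxa2 was at 102.3%, with a counting interval of 99.4% to 105% that includes equality, and Dab2 was at 140%. Fibroblast feeder markers summed to 0.0150 RPKM with Gata6-AS LNA and 0.00294 RPKM with control LNA, with 4 of 6, Col3a1, Thy1, Twist1 and Dcn, at 0 in both. The 4 trophoblast markers found summed to 1.78 RPKM with Gata6-AS LNA and 1.09 RPKM with control LNA, and the 5 pluripotency markers to 5.13 RPKM with Gata6-AS LNA and 4.68 RPKM with control LNA, nearly all of it Nanog; Sox2 was at 0. The part of these marker levels in the differences below was not tested. In bulk RNA, fewer cells of a kind and less RNA per cell cannot be told apart.

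Of the 42 genes, 36 averaged 1 RPKM or more across the libraries and are compared here as differences of log2(RPKM + 1), Gata6-AS LNA minus control LNA. Of these 36, 1 was at least 2-fold lower, Vldlr, and 0 were at least 2-fold higher; among all 10854 genes at this level, 0.451% were that much lower and 0.332% that much higher. At 1.5-fold, 2 were lower (Vldlr and Vps26a) and 1 was higher (Lrp8), beside 1.94% and 3.43% of all genes. These sizes are on the log2(RPKM + 1) scale, where the added 1 RPKM shrinks ratios of low genes. Arrb2, at 151% of control and a difference of 0.50, is therefore not counted. Of the 36, 20 lay under 0.25 either way, or 55.6%, beside 66.9% of all genes. The median was -0.12, with 21 of 36 below 0 and 15 above, while all genes had a median of 0.05, 42.0% below 0 and 58.0% above. The 8 measured receptor genes had a median of -0.016 and 4 below 0, but the median was 0.035 without Lrpap1 or without Vldlr; the 28 measured machinery genes had a median of -0.18 and 17 below 0. The receptor genes ran from -1.01 to 0.80, and the machinery genes from -0.64 to 0.50.

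**Figure D1:**
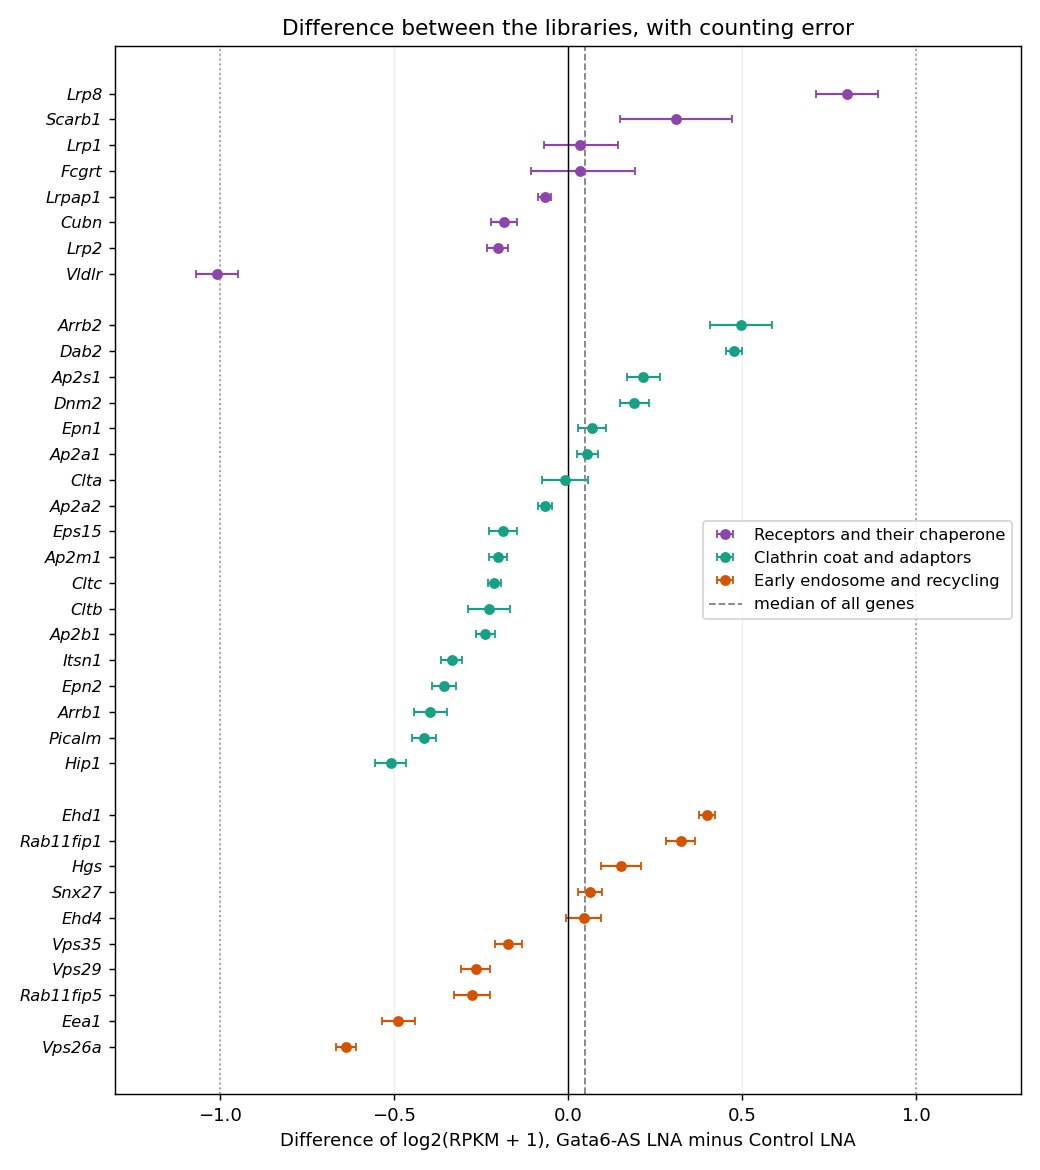
Differences of log2(RPKM + 1), Gata6-AS LNA minus control LNA, for the 36 genes averaging 1 RPKM or more, by class. Points are single-library differences, bars are exact 95% counting intervals, dotted lines mark the 2-fold size, and the dashed line is the median of all genes at 0.05. Vldlr at -1.01 and Lrp8 at 0.80 lie at opposite ends, and both belong to the receptors.

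The lipoprotein receptors Vldlr and Lrp8 differed most, in opposite directions. They are close relatives within the lipoprotein receptor family, and both bind apolipoprotein E and reelin. Vldlr, the very low-density lipoprotein receptor (mm9 chromosome 19, 27290974 to 27328721, plus strand), stood at 6.12 RPKM in the Gata6-AS LNA library and 13.3 RPKM in the control LNA library. It stood at 45.9% of control, with an exact counting interval of 43.7% to 48.2% based on no fewer than 2527 reads with Gata6-AS LNA and 4634 with control LNA, and its log2(RPKM + 1) difference was -1.01. The counting interval of this difference, -1.07 to -0.95, spans the 2-fold size, so its place just past that size is not fixed by the read counts. The difference lay at percentile 0.433 of all genes.

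Lrp8, the apolipoprotein E receptor 2 gene (mm9 chromosome 4, 107474866 to 107549445, plus strand), stood at 3.47 RPKM in the Gata6-AS LNA library and 1.57 RPKM in the control LNA library. It thus reached 221% of control (205% to 240%, on at least 2245 reads with Gata6-AS LNA and 854 with control LNA). The log2(RPKM + 1) difference was only 0.80, because the added 1 RPKM weighs on a gene at this level, and it lay at percentile 99.1 of all genes. With an added 0.1 RPKM in place of 1 it was 1.10 and passed the 2-fold size. Lrp8 thus made up 36.2% of the summed RPKM of Lrp8 and Vldlr in the Gata6-AS LNA library and 10.5% in the control LNA library. The ratio of Lrp8 to Vldlr was 4.82 times as high in the Gata6-AS LNA library (exact 95% interval 4.39 to 5.29, counting error only).

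In the authors' deposited table Vldlr had a log2 difference of -1.13 (p = 0.000204) and Lrp8 of 1.08 (p = 0.000514). That table uses the same 2 libraries, its test is unstated in these sources, and it is no independent check.

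**Figure D2:**
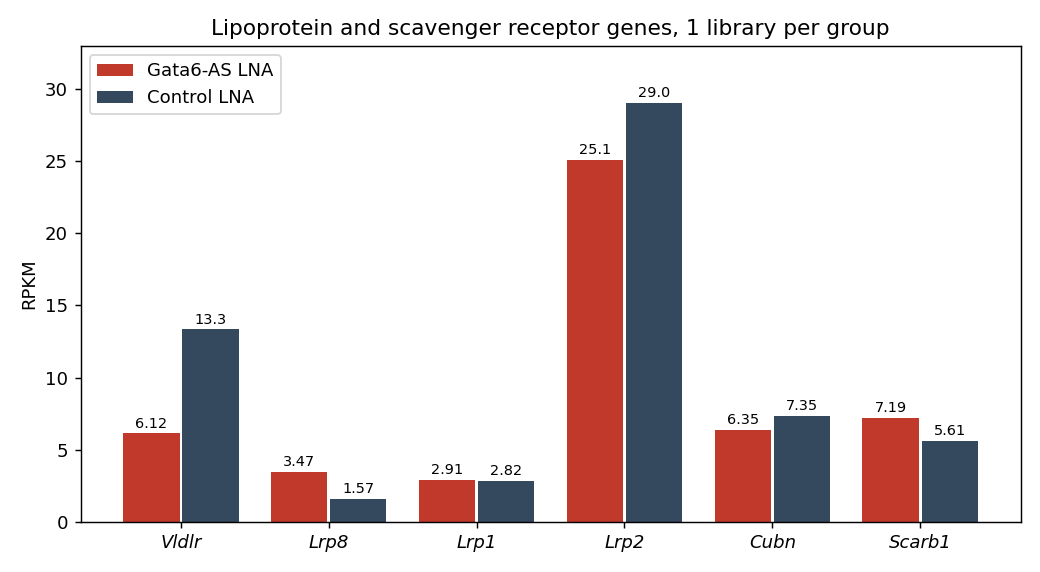
RPKM of 6 lipoprotein and scavenger receptor genes in the Gata6-AS LNA library (left bar of each pair) and the control LNA library (right bar), 1 library each, with no error bars since there are no replicates. Vldlr is at 6.12 RPKM with Gata6-AS LNA and 13.3 RPKM with control LNA, and Lrp1 at 2.91 RPKM with Gata6-AS LNA and 2.82 RPKM with control LNA.

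The promoters of Vldlr and Lrp8, the receptors that differed most, were read from RefSeq (GRCm38.p6), each 250 bases before to 50 bases after an annotated start. The 44 windows of 35 of the 42 genes were searched on both strands for the letters TGATGNAA, the core of the amino acid response element bound by ATF4-type factors, and TCACNCCAC, a form of the sterol response element; the motifs do not overlap in letters. The first was found in windows of Vldlr and Eps15, which is 4.55% of the 44 windows, beside 3.97% of all 32851 promoter windows. The second was found in 0 of the 44 and in 1.24% of all windows. The Vldlr window with the match, chr19:27216770-27217069 on the plus strand, holds it in reverse from 200 to 193 bases before the start, in capitals here. The Lrp8 window, chr4:107802635-107802934 on the plus strand, has no match to either motif and is shown for comparison.
Vldlr: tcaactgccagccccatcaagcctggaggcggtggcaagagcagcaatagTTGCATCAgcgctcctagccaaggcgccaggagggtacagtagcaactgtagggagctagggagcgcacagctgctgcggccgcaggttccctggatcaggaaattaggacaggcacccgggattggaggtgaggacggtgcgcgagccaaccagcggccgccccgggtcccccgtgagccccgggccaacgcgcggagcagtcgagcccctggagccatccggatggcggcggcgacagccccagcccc
Lrp8: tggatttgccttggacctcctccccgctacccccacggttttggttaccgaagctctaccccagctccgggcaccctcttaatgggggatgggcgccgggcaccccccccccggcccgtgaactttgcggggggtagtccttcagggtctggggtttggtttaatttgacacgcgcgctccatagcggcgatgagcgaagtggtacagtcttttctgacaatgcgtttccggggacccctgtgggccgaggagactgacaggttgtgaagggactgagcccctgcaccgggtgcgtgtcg
A match of letters is a description and not a binding site, and its part in the Vldlr difference was not tested. Eps15, which also has a match, had a difference of -0.19.

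The scavenger receptor genes Lrp2 and Cubn were slightly lower in the Gata6-AS LNA library. Megalin, Lrp2, a very large receptor for vitamin carriers and many other proteins, stood at 25.1 RPKM in the Gata6-AS LNA library and 29.0 RPKM in the control LNA library, or 86.5% of control (84.7% to 88.4%). Cubilin, Cubn, which has no membrane span of its own and shares ligands with megalin, stood at 6.35 RPKM with Gata6-AS LNA and 7.35 RPKM with control LNA, also 86.5% of control (84.0% to 89.0%). The ratio of Lrp2 to Cubn was therefore 3.95 in each library. Amn, which encodes amnionless, the partner that anchors cubilin in the membrane, was near the floor, at 0.0628 RPKM in the Gata6-AS LNA library and 0.0974 RPKM in the control LNA library, from at least 13 reads with Gata6-AS LNA and 17 with control LNA. Its ratio of 64.4% of control has a counting interval of 28.8% to 141%, so no difference was detectable at this depth.

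Lrpap1, the receptor-associated protein, is a chaperone of the endoplasmic reticulum that keeps lipoprotein receptors from binding ligand too early. It was the most abundant of the 42 genes in both libraries, at 274 RPKM in the Gata6-AS LNA library and 287 RPKM in the control LNA library. Lrpap1 was thus 10.9 times as abundant per length as Lrp2 in the Gata6-AS LNA library and 9.88 times in the control LNA library. The large multiligand receptor gene Lrp1 stood at 2.91 RPKM with Gata6-AS LNA and 2.82 RPKM with control LNA, 103% of control. Its interval of 93.7% to 114% includes equality. That interval rests on at least 906 reads with Gata6-AS LNA and 738 with control LNA, and is too wide if there were more.

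Scarb1, which takes up cholesteryl esters from high-density lipoprotein, stood at 7.19 RPKM in the Gata6-AS LNA library and 5.61 RPKM in the control LNA library, 128% of control (113% to 146%). Fcgrt, the neonatal Fc receptor heavy chain, was at 1.04 RPKM with Gata6-AS LNA and 0.994 RPKM with control LNA, and passed the level filter by its mean although the control LNA library lay under 1 RPKM. The stabilins, scavenger receptors of sinusoidal endothelium, were low: Stab1 stood at 0.689 RPKM in the Gata6-AS LNA library and 0.393 RPKM in the control LNA library. Stab2 rested on at least 2 reads with Gata6-AS LNA and 4 with control LNA, at 0.00186 RPKM with Gata6-AS LNA and 0.00441 RPKM with control LNA, and its ratio of 42.1% of control has a counting interval of 3.81% to 294%. The span of Stab1 overlaps the expressed gene Nt5dc2 on the opposite strand, so its reads are uncertain.

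**Figure D3:**
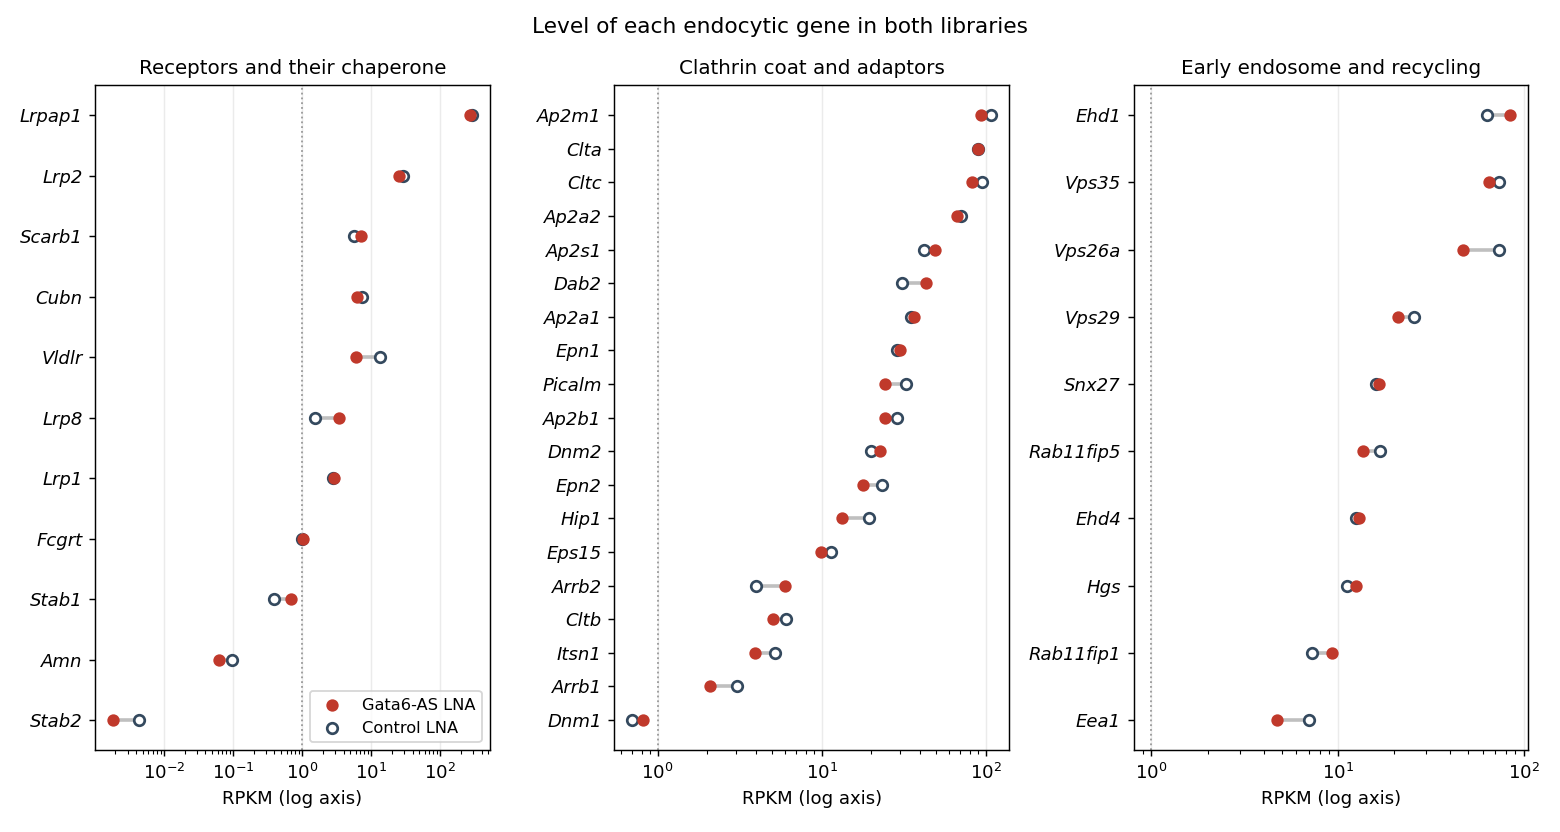
RPKM on log axes of the 11 receptor genes, 19 coat and adaptor genes and 10 endosome and recycling genes, each sorted by its level in the Gata6-AS LNA library. Filled points are the Gata6-AS LNA library, open points the control LNA library, and the dotted line marks 1 RPKM; Cav1 and Cav2, listed at 0, are not drawn. Machinery genes mostly lie above 2 RPKM, Dnm1 excepted, while Stab1, Amn and Stab2 lie under 1 RPKM.

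Of the clathrin genes, Cltc and Cltb were slightly lower in the Gata6-AS LNA library, and Clta was close to control. Cltc, the heavy chain that forms the legs of the triskelion, stood at 82.1 RPKM in the Gata6-AS LNA library and 95.2 RPKM in the control LNA library, or 86.3% of control (85.1% to 87.5%). The light chain gene Clta stood at 89.9 RPKM with Gata6-AS LNA and 90.4 RPKM with control LNA, and its interval of 94.9% to 104% includes equality. The other light chain gene, Cltb, was far less abundant than Clta, at 5.03 RPKM with Gata6-AS LNA and 6.05 RPKM with control LNA. Clta thus held 94.7% of the light chain RPKM in the Gata6-AS LNA library and 93.7% in the control LNA library.

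The AP2 complex links cargo and membrane to clathrin, and its 5 genes spread on both sides of 0. Their summed RPKM was 271 in the Gata6-AS LNA library and 284 in the control LNA library, 95.3% of control. Ap2m1, the subunit that reads tyrosine-based sorting signals, stood at 93.5 RPKM in the Gata6-AS LNA library and 108 RPKM in the control LNA library. Ap2b1, the subunit that contacts clathrin, had the most negative difference of the complex (24.2 RPKM with Gata6-AS LNA and 28.7 RPKM with control LNA, difference -0.24). Ap2s1, the small subunit that takes part in reading dileucine signals, had the most positive (49.2 RPKM with Gata6-AS LNA and 42.2 RPKM with control LNA, 0.22). The alternative large subunits were both close to control, Ap2a1 at 36.5 RPKM with Gata6-AS LNA and 35.1 RPKM with control LNA, and Ap2a2 at 67.3 RPKM with Gata6-AS LNA and 70.5 RPKM with control LNA.

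Dab2, the adaptor that binds the cytoplasmic tails of megalin and other lipoprotein receptors, was among the most positive of the machinery genes. It stood at 43.6 RPKM in the Gata6-AS LNA library and 31.0 RPKM in the control LNA library, 140% of control (138% to 143%) and a difference of 0.48, at percentile 94.0 of all genes. Its receptor partner Lrp2 had a difference of the other sign, -0.20.

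Of the 9 accessory adaptor genes, 6 lay below 0 and 3 above (Dab2, Epn1 and Arrb2), beside 42.0% of all genes below 0. Hip1, which ties the coat to actin, stood at 13.4 RPKM in the Gata6-AS LNA library and 19.4 RPKM in the control LNA library, 68.8% of control (66.5% to 71.1%) and a difference of -0.51. Picalm, a clathrin assembly protein, stood at 24.4 RPKM with Gata6-AS LNA and 32.9 RPKM with control LNA (-0.41). Epn2, an epsin that bends membrane and binds ubiquitin-tagged cargo, stood at 17.9 RPKM with Gata6-AS LNA and 23.2 RPKM with control LNA (-0.36), while its relative Epn1 was at 30.2 RPKM with Gata6-AS LNA and 28.8 RPKM with control LNA (0.07). The scaffold genes Eps15 and Itsn1 were at -0.19 and -0.33. Dnm2, the dynamin of most tissues, stood at 22.8 RPKM in the Gata6-AS LNA library and 19.9 RPKM in the control LNA library (0.19), and Dnm1, the neuronal form, was below 1 RPKM in both.

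The arrestins, which bring activated G protein-coupled receptors to the coat, lay on opposite sides of 0. Arrb2 stood at 6.02 RPKM in the Gata6-AS LNA library and 3.97 RPKM in the control LNA library, 151% of control (141% to 163%). Arrb1 stood at 2.09 RPKM with Gata6-AS LNA and 3.06 RPKM with control LNA, 68.2% of control (64.9% to 71.7%). Arrb2 made up 74.2% of their summed RPKM in the Gata6-AS LNA library and 56.5% in the control LNA library. The ratio of Arrb2 to Arrb1 was 2.22 times as high in the Gata6-AS LNA library (2.03 to 2.42).

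Of 8 paralogue pairs among the 42 genes, picked by name with the values known, the ratio differed most for Lrp8 and Vldlr, then Arrb2 and Arrb1, then Rab11fip1 and Rab11fip5. In that last pair, of effectors that guide Rab11 recycling vesicles, Rab11fip1 held 40.5% in the Gata6-AS LNA library and 30.1% in the control LNA library. Of the epsin pair, Epn1 held 62.8% with Gata6-AS LNA and 55.3% with control LNA. Of Ehd1 and Ehd4, Ehd1 held 86.6% with Gata6-AS LNA and 83.5% with control LNA. Clathrin light chains, AP2 large subunits and dynamins kept shares within 2 percentage points of each other.

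**Figure D4:**
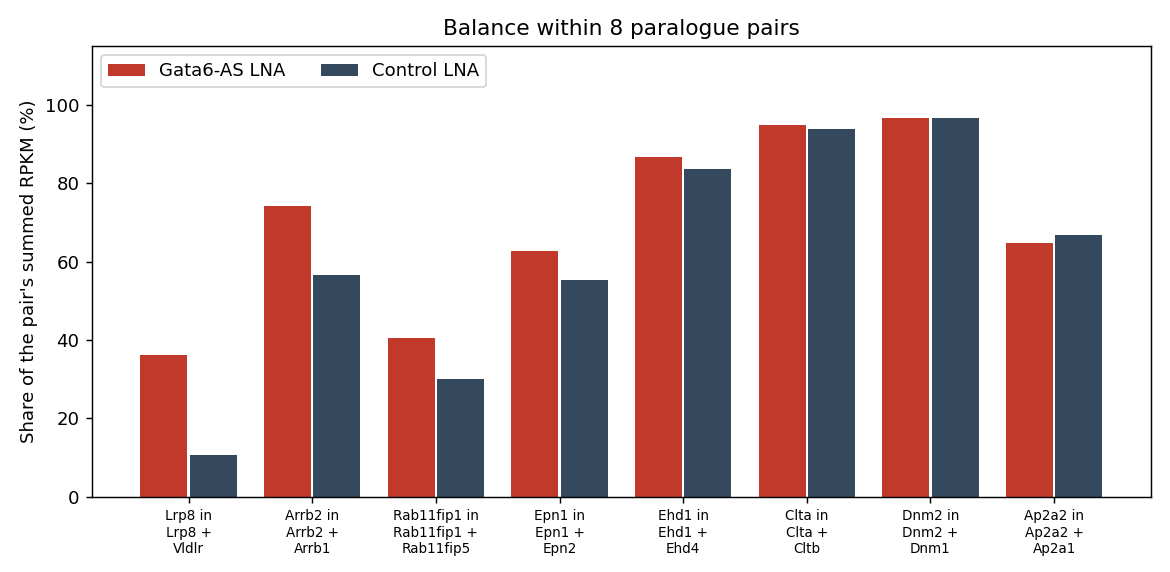
Share of the first-named gene in the summed RPKM of 8 paralogue pairs, in percent. Left bars are the Gata6-AS LNA library and right bars the control LNA library. Pairs are sorted by their ratio of first to second gene, Gata6-AS LNA relative to control LNA, from highest to lowest. Lrp8 is at 36.2% with Gata6-AS LNA and 10.5% with control LNA, Arrb2 at 74.2% with Gata6-AS LNA and 56.5% with control LNA, and Dnm2 at 96.5% with Gata6-AS LNA and 96.6% with control LNA.

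The retromer retrieves receptors from endosomes. Its 3 genes among the 42 lay below 0, beside 42.0% of all genes. The paralogue Vps26b, outside the 42 genes, was at 109% of control, though its span overlaps the expressed gene Thyn1 on the opposite strand. Vps26b is described under the other observations. Vps26a (mm9 chromosome 10, 61917591 to 61949553, minus strand) stood at 47.2 RPKM in the Gata6-AS LNA library and 74.0 RPKM in the control LNA library, 63.8% of control (62.5% to 65.1%) and a difference of -0.64, at percentile 1.58 of all genes. Its partner Vps35 stood at 65.4 RPKM with Gata6-AS LNA and 73.7 RPKM with control LNA (-0.17). Vps29 stood at 21.2 RPKM with Gata6-AS LNA and 25.7 RPKM with control LNA (-0.27). The ratio of Vps26a to Vps35 was 0.722 in the Gata6-AS LNA library and 1.003 in the control LNA library. Snx27, which loads cargo onto the retromer, was at 16.8 RPKM with Gata6-AS LNA and 15.996 RPKM with control LNA.

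Among early endosome genes, Eea1, a tether for vesicle fusion, stood at 4.71 RPKM in the Gata6-AS LNA library and 6.997 RPKM in the control LNA library, 67.3% of control (64.7% to 69.9%). Hgs, which sorts ubiquitin-tagged receptors toward lysosomes, stood at 12.6 RPKM with Gata6-AS LNA and 11.2 RPKM with control LNA, 112% of control (108% to 117%). Ehd1, an ATPase that cuts recycling tubules, had the most positive difference of the recycling genes, at 84.3 RPKM in the Gata6-AS LNA library and 63.6 RPKM in the control LNA library (0.40). Rab11fip1 was at 0.32, Rab11fip5 at -0.27, and Ehd4 at 0.05 with a counting interval that includes 0.

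The caveolin genes Cav1 and Cav2, whose products coat the clathrin-independent pits called caveolae, were listed at 0 in both libraries, and no fold is given. Of the 36 genes compared, 7 span an expressed gene on the opposite strand: Cubn, Ap2a1, Ap2a2, Itsn1, Dnm2, Rab11fip1 and Vps29. Their values may hold reads of that gene, since the strand setting of the counting is unknown here.

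The authors' deposited table lists 8 of the 42 genes, 5 lower and 3 higher; all 8 are among the 36, where 11.9% of all genes are listed, 5.69% lower and 6.24% higher. Beside Vldlr and Lrp8 the authors' deposited table gives Arrb1 (-0.62, p = 0.0189), Eea1 (-0.61, p = 0.0404), Vps26a (-0.60, p = 0.0471) and Hip1 (-0.52, p = 0.0542) as lower. The authors' deposited table gives Dab2 (0.54, p = 0.0618) and Arrb2 (0.50, p = 0.0741) as higher.

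A wider list of endocytic genes outside the 42 held 130 entries that are reported here, of which 123 were found and 92 averaged 1 RPKM or more. Some of the entries not found are other symbols of genes that were found, so they are not all missing genes. Of these 92, 0 were at least 2-fold higher or lower. At 1.5-fold, 0 were higher and 1 was lower, Fnbp1l, a membrane-bending protein gene named after its values were seen (11.4 RPKM with Gata6-AS LNA and 17.8 RPKM with control LNA, -0.60). The list's median was 0.02, with 39 of 92 below 0, or 42.4%, beside 42.0% of all genes. Tfrc, the transferrin receptor, stood at 5.10 RPKM in the Gata6-AS LNA library and 3.997 RPKM in the control LNA library (0.29). Igf2r, which carries lysosomal enzymes, stood at 27.5 RPKM with Gata6-AS LNA and 37.9 RPKM with control LNA (-0.45), but its span overlaps the expressed antisense RNA gene Airn. Snx17, which recycles lipoprotein receptors, was at 15.9 RPKM with Gata6-AS LNA and 15.7 RPKM with control LNA (0.02). Its span overlaps the expressed gene Eif2b4 on the opposite strand.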

How the data were processed

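RNA of 2 libraries, 1 per group, was compared. The expression table deposited by the authors holds RPKM, per the file headers; the other deposited table gives, for a selection of 2099 genes, the authors' log2 values, log2 difference and p-value. TopHat and mm9 are named in the submitters' processing notes; the sources used here do not state the counting tool, annotation, strand setting, handling of multiply mapped reads or origin of the log2 values.

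Members and lists were chosen with earlier results of these data known. All members are named; outside them, 3 partner genes, the cell type markers, the targeted locus, overlapping genes, and, chosen after their values were seen, Fnbp1l and the genes of the closing section. A few genes of the wider endocytic list are not reported here and were left out of its counts. A symbol on several rows took its highest row. Differences are of log2(RPKM + 1), for a mean of at least 1 RPKM. The size of 1 read came from genes spanning under 3000 bp (866 whole-step genes with Gata6-AS LNA and 811 with control LNA, tolerance 0.001 reads). Exact (Clopper-Pearson) 95% intervals, and conditional exact intervals for ratios of pairs, used the smallest whole numbers of reads that fit. These numbers give both RPKM values at 1 length up to 30000 bp. The intervals cover counting error only. Where the true reads were more, the intervals are too wide, also where they include equality. Over 1 kb, 0 reads allow 0.0244 RPKM (Gata6-AS LNA) or 0.0290 RPKM (control LNA), 3 reads. Scripts (Python 3.11.15, scipy 1.17.1) were tested on simulated data. Tables were joined by coordinates. Alternatives were other pseudocounts (0.1, 0.5), scalings, filters and left-out genes.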

Additional observations from a re-analysis of the deposited data

How the results depend on the processing

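With 1 library per group, the spread between cultures is unknown, and no value here separates the LNA from differences between any 2 cultures. No paired analysis was possible because each group had 1 library. Vldlr kept its direction and stayed at least 2-fold lower under the other pseudocounts and scalings, from -1.11 to -1.03. An added 0.1 RPKM made 1 gene at least 2-fold higher (Lrp8, 0 otherwise) and 2 at least 1.5-fold higher (Lrp8 and Arrb2). A filter at a mean of 5 RPKM left 0 at 1.5-fold higher, since it removes Lrp8. That filter put the receptor median at -0.18, beside -0.016 with the settings used above. With equal summed RPKM the receptor median was -0.040, and with the median of all genes set to 0 it was -0.064. With the settings used above, leaving out Lrpap1 or Vldlr turned the sign of the receptor median, to 0.035. Without a filter the median of the 42 genes was -0.027, beside -0.12 for the 36 genes with the settings used above. It was -0.18 with the filter at 5 RPKM, -0.17 with the median of all genes set to 0, and -0.15 with equal summed RPKM. Setting the median of all genes to 0, a shift of 0.05, put the machinery median at -0.23, beside -0.18 with the settings used above. With that shift, 3 of the 36 genes changed sign (Lrp1, Fcgrt and Ehd4). None did under the other pseudocounts or equal summed RPKM.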

Other observations

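The commander complex, known for recycling lipoprotein receptors from endosomes, was looked at after the values of some of its genes were seen. Of its genes, 14 outside the 42 were looked up and all 14 were measured. Of these, 11 lay above 0 and 3 below (Commd6, Commd8 and Commd10), beside 58.0% of all genes above 0. Vps29, which this complex shares with the retromer, is not among the 14 and was at -0.27. The differences of the 14 were small, with a median of 0.07 and a range of -0.23 to 0.36, and 0 of the 14 reached 1.5-fold. Commd5 stood at 7.66 RPKM in the Gata6-AS LNA library and 5.77 RPKM in the control LNA library, 133% of control (120% to 147%). Commd10 stood at 11.3 RPKM with Gata6-AS LNA and 13.4 RPKM with control LNA, 84.4% of control (81.1% to 87.9%). The spans of Commd1, Ccdc22 and 9030624J02Rik overlap expressed genes on the opposite strand, so their reads are uncertain.

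Of 5 more genes linked to the retromer, also picked after values were seen, 4 lay above 0 and 1 below. Of all genes, 58.0% lay above 0. Vps26b, the paralogue of Vps26a, stood at 11.2 RPKM in the Gata6-AS LNA library and 10.3 RPKM in the control LNA library. This was 109% of control (106% to 112%). Of the sorting nexin genes known to work with retromer, Snx2 stood at 89.8 RPKM with Gata6-AS LNA and 107 RPKM with control LNA (-0.25). Snx1, Snx5 and Snx6 were at 116%, 108% and 101.2% of control. The spans of Vps26b and Snx5 overlap the expressed genes Thyn1 and 8430406I07Rik on the opposite strand, so their reads are uncertain.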
